A study of Mus musculus with 24 samples.

Results

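Markers of resident tissue macrophages were followed by total RNA-seq in 24 libraries from male mice, made from inguinal white adipose tissue, a subcutaneous fat depot. The 10 genes, Adgre1, Mrc1, Cd163, Lyve1, Folr2, Timd4, Cd209f, Retnla, Clec10a and F13a1, were taken by symbol out of 41388 genes in the files, and all 10 passed the filter on low counts. Every mouse was MRflox/flox, with Nr3c2 (which encodes the mineralocorticoid receptor) floxed on both alleles. Controls had no Cre, and FMRKO mice were AdipoqCre+, with Cre driven by the Adipoq promoter, which is active in adipocytes. Both genotypes were studied under chow, high-fat diet and corticosterone, the main glucocorticoid of the mouse, and each of the 6 groups had 4 libraries. The sources used here give no age, dose, treatment length or vehicle group, and they do not say that the libraries of a group came from separate animals, so p-values measure the spread between libraries. Chow libraries of both genotypes also carry titles of another form than the rest, and whether this marks a batch cannot be told apart from diet or corticosterone.

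Resident macrophages live in the stroma of fat, along vessels and between adipocytes, where they take up dead cells, free hemoglobin, excess lipid and matrix fragments. Many arise before birth and renew in the tissue, and they are marked by scavenger receptors and lectins, whereas lipid-associated macrophages of expanding fat are marked by Trem2, Cd9 and Gpnmb. Signals from IL-4 and IL-13 through STAT6 induce Retnla, Mrc1 and Clec10a in macrophages, and glucocorticoids raise Cd163. These statements are background and not results of these libraries.

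Gene starts of members whose levels moved in different directions are shown first. RefSeq promoter entries on GRCm38.p6 matched 7 of the 10 members. The part of each entry ahead of the gene, up to 250 bases, was searched on both strands for letters typical of PU.1 (GAGGAA), STAT6 (TTC and GAA with any 4 bases between), C/EBP (TTGCNNAA) and the glucocorticoid receptor (GNACA and TGTNC with any 3 bases between). Capitals mark every match, no matches overlap, and the sequences are shown because Retnla and Cd209f fell with corticosterone in controls while F13a1 and Cd163 rose with it in FMRKO mice.
Retnla (chr16:48842359-48842551, plus strand): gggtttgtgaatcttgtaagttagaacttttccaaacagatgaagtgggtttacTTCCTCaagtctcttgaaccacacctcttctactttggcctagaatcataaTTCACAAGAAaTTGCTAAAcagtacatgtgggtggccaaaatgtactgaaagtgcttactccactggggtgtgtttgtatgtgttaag
F13a1 (chr13:37050245-37050494, minus strand): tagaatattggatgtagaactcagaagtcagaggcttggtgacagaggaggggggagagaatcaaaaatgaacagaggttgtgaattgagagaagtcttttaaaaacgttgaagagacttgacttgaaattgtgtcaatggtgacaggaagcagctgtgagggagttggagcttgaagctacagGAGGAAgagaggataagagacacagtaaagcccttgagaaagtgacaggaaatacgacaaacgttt
Cd163 (chr6:124304401-124304650, plus strand): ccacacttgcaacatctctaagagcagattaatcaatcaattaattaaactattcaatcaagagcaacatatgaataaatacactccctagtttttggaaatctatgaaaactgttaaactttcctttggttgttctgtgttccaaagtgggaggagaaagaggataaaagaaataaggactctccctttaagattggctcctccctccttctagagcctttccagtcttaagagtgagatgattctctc
Cd209f (chr8:4105836-4106014, minus strand): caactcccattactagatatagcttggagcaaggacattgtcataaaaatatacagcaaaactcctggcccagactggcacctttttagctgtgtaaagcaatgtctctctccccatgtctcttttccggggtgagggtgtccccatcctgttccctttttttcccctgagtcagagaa
The Retnla window held the PU.1 letters 139 bases, the STAT6 letters 88 bases and the C/EBP letters 77 bases ahead of the gene. F13a1 held the PU.1 letters 66 bases ahead, and Mrc1 (not printed) held them 180, 167 and 35 bases ahead. The windows of Cd163, Folr2, Timd4 and Cd209f held no match, and 0 of the 7 windows held the glucocorticoid receptor letters. In all 32851 promoters of the table, the share with a match in 193 bases was 18.2% for PU.1, 4.61% for STAT6, 7.88% for C/EBP and 0.32% for the glucocorticoid receptor. In 250 bases these shares were 23.3%, 5.85%, 9.56% and 0.387%, and in 179 bases 17.1%, 4.31%, 7.37% and 0.307%. A match describes letters only and shows no binding.

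Total counts per library ran from 17925109 to 40427675. Nr3c2 itself averaged 23.5 CPM in chow controls and 19.2 CPM in chow FMRKO mice with overlapping libraries, and under high-fat diet and under corticosterone each FMRKO library lay below each control (12.7 to 15.7 against 18.5 to 25.0 CPM, and 7.73 to 12.2 against 14.1 to 18.4 CPM). These counts cover the whole gene in all cell types. Adipoq, the defining transcript of adipocytes, lay at 802 to 1677 CPM in the 24 libraries. Lymph node lymphocyte genes (17 genes, mean log2 CPM) stood at 4.06 to 6.06 in 6 libraries, namely numbers 1 and 3 of chow FMRKO mice and numbers 1 and 4 of both high-fat diet groups. They stood at 2.19 and 2.23 in corticosterone FMRKO 3 and 2 and at -1.54 to 1.45 in the other 16. Skeletal muscle genes reached a mean log2 CPM of 8.6 in chow FMRKO 5 and 6.17 in corticosterone control 2.

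Values per library are CPM, counts scaled to library totals with TMM factors, and comparisons are log2 fold changes with standard errors (±) from the edgeR quasi-likelihood test. A gene was called when its p adjusted by Benjamini-Hochberg over 19717 genes was under 0.05. Levels between genes are compared per length as RPKM, averaged over the 24 libraries. On this scale Retnla led with 247 ± 153 RPKM (SD, n = 24), and F13a1 (44.6 ± 15.3), Folr2 (43.5 ± 15.6), Cd163 (32.5 ± 11.3) and Mrc1 (29.9 ± 6.61) followed. Lyve1 (21.4 ± 12.3), Clec10a (17.3 ± 6.53), Adgre1 (16.2 ± 6.56) and Cd209f (13.7 ± 4.96) were lower, and Timd4 was lowest with 4.38 ± 5.76 RPKM. From F13a1 down to Cd209f, neighbours in this order differed by less than their spread over libraries.

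**Figure D1:**
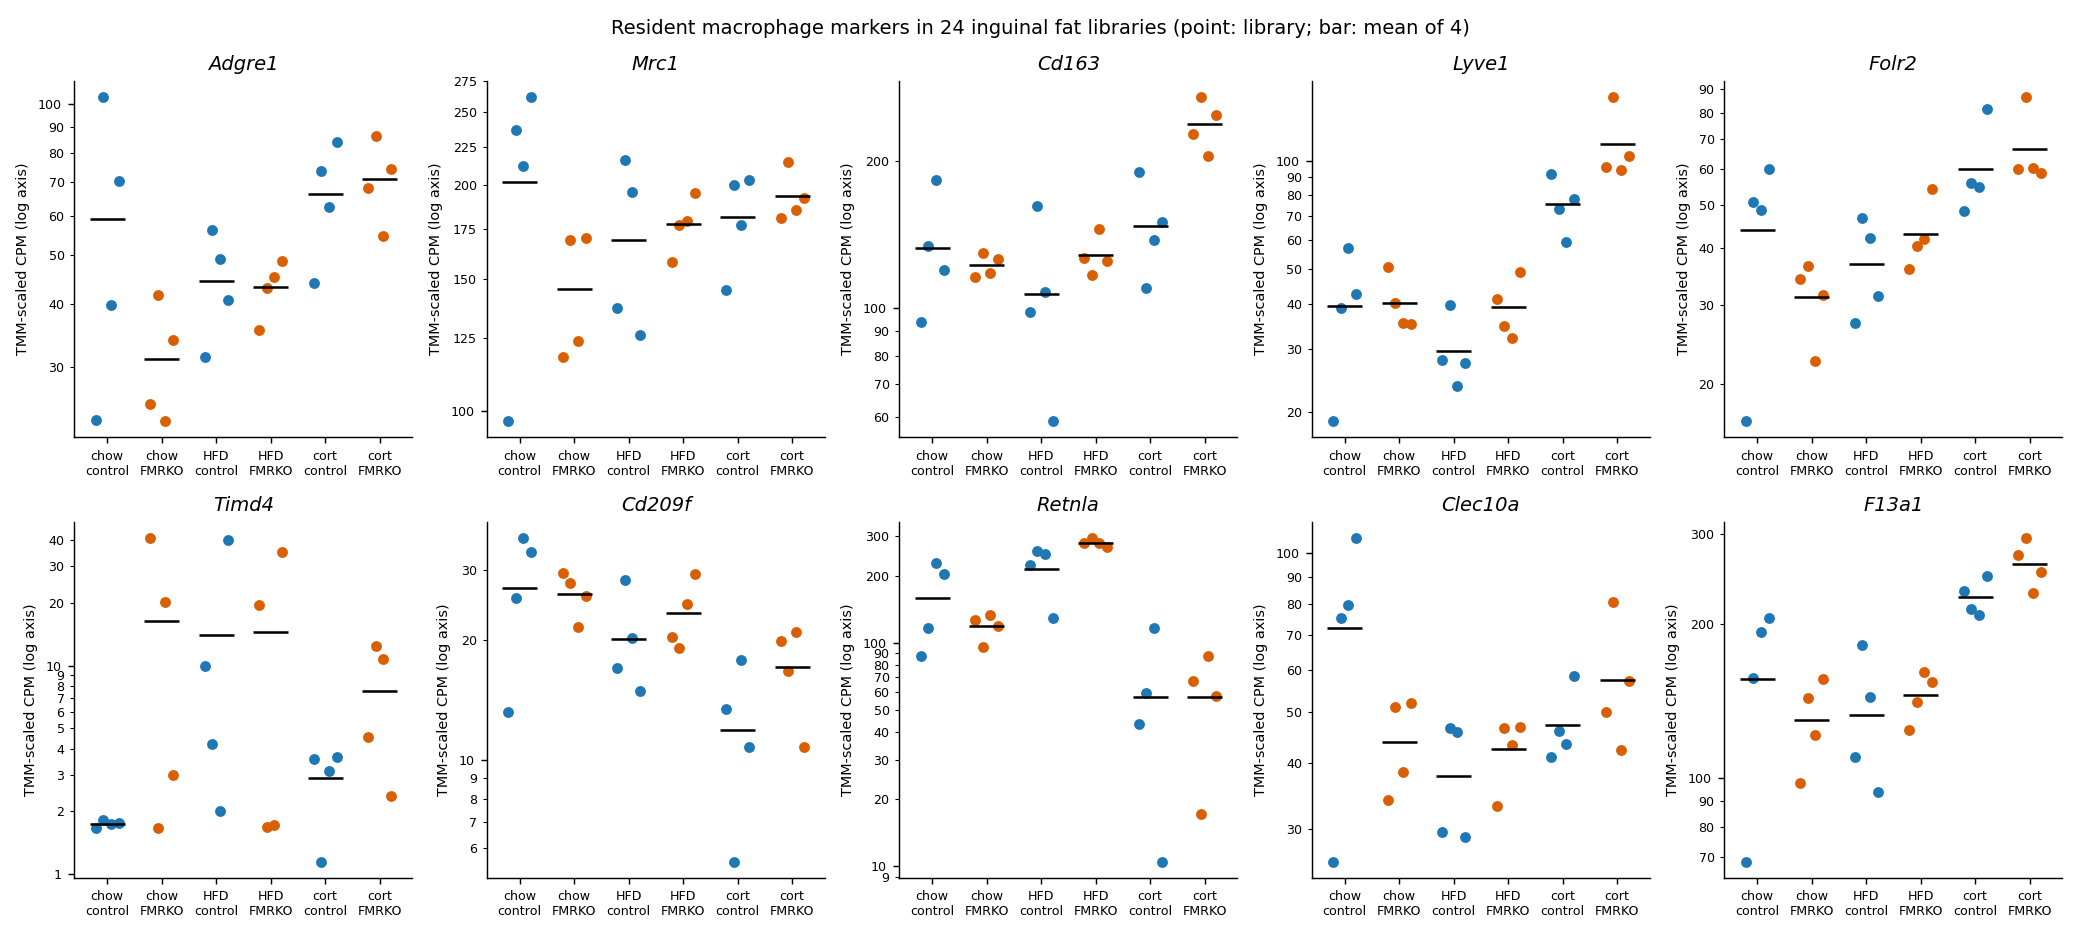
Each panel plots a marker's TMM-scaled CPM on a log axis in the 6 groups, with controls in blue, FMRKO in orange, each point a library and each bar the mean of 4. Lyve1 and F13a1 are highest with corticosterone, Retnla is highest on the high-fat diet, chow controls spread widely and Timd4 ranges from 1.15 to 40.9 CPM.

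The 4 chow control libraries differed widely in these markers. All 10 members were lowest in chow control 1, where they summed to 446 CPM, against 938, 1077 and 1106 CPM in chow controls 2, 4 and 5. The gap was 1.95-fold to 4.37-fold between the lowest and the highest library for the 9 members other than Timd4. Bulk libraries cannot tell fewer macrophages from less of these transcripts in each macrophage.

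Adgre1, the F4/80 surface protein found on most mouse macrophages, stood at 23.6, 103, 39.9 and 70.1 CPM in chow controls 1, 2, 4 and 5. Clec10a was at 26, 75.4, 79.9 and 107 CPM and Folr2 at 16.6, 50.8, 48.6 and 59.9 CPM in the same order. Adgre1 was thus highest in library 2, while Clec10a and Folr2 were highest in library 5 and close in libraries 2 and 4.
Cd163 (93.6, 134, 183 and 120 CPM), Lyve1 (18.9, 38.9, 57.2 and 42.5 CPM), Cd209f (13.2, 25.4, 36 and 33.2 CPM) and Retnla (86.9, 116, 227 and 203 CPM) peaked in library 4. Mrc1 (96.9, 237, 212 and 262 CPM) and F13a1 (68.5, 157, 193 and 206 CPM) peaked in library 5. Timd4 was even, at 1.67, 1.81, 1.74 and 1.76 CPM. The libraries therefore shared a low end but not a common order above it.

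**Figure D2:**
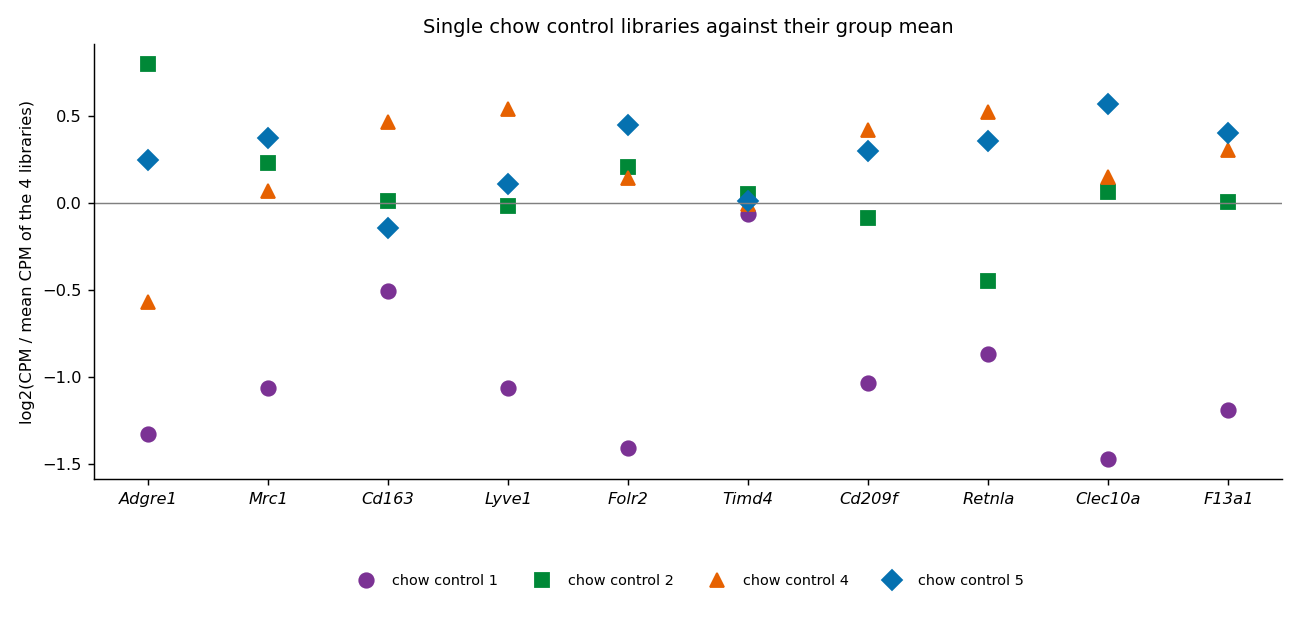
The y axis gives log2 of each chow control library's CPM over the mean of the 4 libraries, for the 10 markers on the x axis. Chow control 1 lies lowest for every marker, Adgre1 is highest in chow control 2, and the 4 libraries coincide for Timd4 (1.67 to 1.81 CPM).

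Other cell lists moved along the same 4 libraries. Genes of macrophages in general, such as Csf1r and C1qa, summed to 679, 3104, 1385 and 1983 CPM in chow controls 1, 2, 4 and 5. Genes of lipid-associated macrophages, such as Trem2 and Gpnmb, summed to 209, 1543, 256 and 600 CPM, 7.38-fold more in library 2 than in library 1. Monocyte genes summed to 85.5, 233, 129 and 157 CPM. Further genes of resident macrophages (17) summed to 688, 1310, 1001 and 1200 CPM. By summed CPM chow control 2 was thus highest in all 4 of these lists, while the 10 members summed highest in chow control 5. By mean log2 CPM the further resident genes stood at 3.67, 4.38, 4.49 and 4.56 in libraries 1, 2, 4 and 5. They were then highest in library 5, as were the members (4.78, 5.86, 5.98 and 6.04). Adipocyte genes summed to 36788, 20508, 32243 and 27613 CPM and fibroblast genes to 5674, 16295, 8908 and 12996 CPM, so library 1 was highest in the former and lowest in the latter. The part of tissue makeup in the markers' spread was not tested.

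The wide spread of chow controls was known when these markers were chosen, so it is given here as a description. The median SD of log2 CPM over the 9 members without Timd4 was 0.675 in chow controls, and over all tested genes in the same libraries it was 0.287. In the other groups the members' median SD was 0.281 (chow FMRKO), 0.381 (high-fat diet control), 0.195 (high-fat diet FMRKO), 0.324 (corticosterone control) and 0.274 (corticosterone FMRKO). Over all tested genes it was 0.307, 0.313, 0.271, 0.21 and 0.198 in the same order. The members thus also spread more than all genes in high-fat diet controls and in both corticosterone groups, by less than in chow controls. Single members spread more widely elsewhere, with Retnla at 11.1-fold and 5.08-fold between the lowest and highest library of corticosterone controls and FMRKO mice. Summed members ran from 658 to 752 CPM in chow FMRKO, 591 to 1040 in high-fat diet controls and 873 to 1006 in high-fat diet FMRKO mice. With corticosterone they ran from 839 to 927 CPM in controls and from 991 to 1230 CPM in FMRKO mice. Each comparison with chow controls below is therefore also given without a chow control library where that library decides it.

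Corticosterone against chow asks what glucocorticoid excess does to these markers. In FMRKO mice 5 of the 10 members rose and 0 fell, against 41.1% of all tested genes called, 20.2% higher and 20.9% lower. Groups did not overlap for 6 members higher and 2 lower, against 20.2% and 17.2% of all genes. In controls 1 rose and 2 fell, against 42.9% of all genes called, 20.2% higher and 22.7% lower. Control groups did not overlap for 2 members higher and 0 lower, against 19.7% and 22.2% of all genes. The members' median log2 fold change was 0.68 in FMRKO mice and 0.15 in controls, and that of all genes was -0.11 and -0.12. The difference between the genotypes' responses was itself tested and no member passed (0 of 10). The chow groups differ in which libraries hold lymph node or muscle transcripts. Without the 8 libraries with lymph node transcripts 2 members were called in FMRKO mice, and with lymph node and muscle scores as covariates 5 were called in controls. The shares of all genes called under these settings are not given here, so these counts are not read as a result about the members. Leaving out the 6 or 8 lymph node libraries also left fewer libraries in chow FMRKO and both high-fat diet groups. Leaving out the 8 also did so in corticosterone FMRKO mice. Whether a call that ends there reflects lymph node content or fewer libraries was not tested.

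Lyve1, a receptor for hyaluronan on perivascular macrophages and on lymphatic endothelium (chromosome 7, 110850607 to 110862953, minus strand), rose in both genotypes. In chow controls it lay at 18.9 to 57.2 CPM as given, and with corticosterone at 91.7, 73.2, 59.3 and 78.2 CPM in control libraries 1 to 4. Chow FMRKO libraries 1, 2, 3 and 5 held 50.5, 40.2, 35.4 and 35.1 CPM, and corticosterone FMRKO libraries 1 to 4 held 96.2, 150, 94.4 and 103 CPM. Every corticosterone library lay above every chow library of its genotype. The log2 fold change was 0.94 ± 0.25 in controls (adjusted p = 0.004) and 1.46 ± 0.25 in FMRKO mice (adjusted p = 1.3e-04, edgeR quasi-likelihood test). With chow controls 1 and 2 left out, the control value was 0.60 ± 0.24 (adjusted p = 0.059 in edgeR), which ends that call. Of the 5 tested genes of lymphatic endothelium, 0 rose in either genotype. In controls 3 fell, against 22.7% of all genes called lower (Reln by 1.07, Pdpn by 0.94 and Flt4 by 0.47 on the log2 scale). That list summed to 45.9 to 64.6 CPM in chow controls and 28.4 to 38.6 CPM in corticosterone controls, with Ccl21a at 0 in all libraries of both groups. In FMRKO mice it summed to 38.9 to 64.3 CPM on chow and 31.2 to 54.0 CPM with corticosterone.

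F13a1, the A subunit of coagulation factor XIII, a transglutaminase stored in macrophages (chromosome 13, 36867178 to 37050244, minus strand), separated the same groups. Chow FMRKO libraries 1, 2, 3 and 5 held 97.8, 143, 121 and 156 CPM, and corticosterone FMRKO libraries 1 to 4 held 273, 295, 230 and 253 CPM. In corticosterone controls 1 to 4 it was 232, 214, 208 and 248 CPM, above all 4 chow controls (68.5 to 206 CPM). The highest chow control and the lowest corticosterone control were nearly equal. F13a1 differed on the log2 scale by 1.02 ± 0.24 in FMRKO mice (adjusted p = 0.002) and 0.53 ± 0.24 in controls (adjusted p = 0.082, edgeR quasi-likelihood test), so only the former was called. Without chow control 5, its highest chow library, the control value was 0.71 ± 0.25 and passed (adjusted p = 0.033), as it did in DESeq2 (0.56, adjusted p = 0.047), while without chow controls 1 and 2 it was 0.18 (adjusted p = 0.530). Without the 8 libraries with lymph node transcripts, the FMRKO value was 0.86 ± 0.34 and did not pass (adjusted p = 0.079).

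Cd163, the scavenger receptor for hemoglobin bound to haptoglobin (chromosome 6, 124304651 to 124330527, plus strand), rose with corticosterone in FMRKO mice. Chow FMRKO libraries 1, 2, 3 and 5 were tightly grouped at 116, 130, 118 and 126 CPM. Corticosterone FMRKO libraries 1 to 4 stood at 227, 270, 205 and 248 CPM. Corticosterone controls 1 to 4 stood at 190, 110, 138 and 150 CPM, within the range of chow controls (93.6 to 183 CPM) except for library 1. The FMRKO groups did not overlap, while the control groups did. Its change was 0.95 ± 0.22 on the log2 scale in FMRKO mice (adjusted p = 0.002) and 0.15 ± 0.22 in controls (adjusted p = 0.619, edgeR quasi-likelihood test; 95% interval -0.32 to 0.61). Under the alternatives tried the FMRKO value lay between 0.70 and 1.02, and its adjusted p was at most 0.034.

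Folr2, the folate receptor beta (chromosome 7, 101839990 to 101845331, minus strand), and Adgre1 (chromosome 17, 57358686 to 57483529, plus strand) were the other members that rose in FMRKO mice. Folr2 was at 34.2, 36.5, 22.5 and 31.6 CPM in chow FMRKO libraries 1, 2, 3 and 5 and at 59.9, 86.5, 60.4 and 58.9 CPM in corticosterone FMRKO libraries 1 to 4. Adgre1 was at 25.4, 41.7, 23.5 and 34 CPM and at 68.2, 86.3, 54.7 and 74.2 CPM in the same libraries. Neither gene's groups overlapped. The log2 fold changes were 1.09 ± 0.28 for Folr2 (adjusted p = 0.004) and 1.19 ± 0.32 for Adgre1 (adjusted p = 0.006, edgeR quasi-likelihood test). In controls they were 0.45 ± 0.28 and 0.16 ± 0.31, with 4 corticosterone libraries at 48.4, 55.8, 54.6 and 81.4 CPM for Folr2 and at 44.1, 73.7, 62.5 and 84.1 CPM for Adgre1. Both genes' control groups overlapped. The Adgre1 call ended without the 6 libraries highest in lymph node transcripts (0.95 ± 0.42, adjusted p = 0.094), and the Folr2 call ended without the 8 libraries with lymph node transcripts (0.86 ± 0.41, adjusted p = 0.137).

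Retnla, the secreted resistin-like molecule alpha (chromosome 16, 48842552 to 48844461, plus strand), went the other way with corticosterone. Corticosterone controls 1 to 4 held 43.3, 59.4, 116 and 10.5 CPM, against 86.9 to 227 CPM in chow controls. Corticosterone FMRKO libraries 1 to 4 held 67.4, 17.1, 87 and 57.8 CPM, against 126, 95.8, 133 and 119 CPM in chow FMRKO libraries 1, 2, 3 and 5. The control groups overlapped through corticosterone control 3, and the FMRKO groups did not overlap. Its log2 fold change was -1.46 ± 0.49 in controls (adjusted p = 0.020) and -1.04 ± 0.49 in FMRKO mice (adjusted p = 0.089, edgeR quasi-likelihood test). The control call ended without chow control 4 (-1.24, adjusted p = 0.065), chow control 5 (-1.29, adjusted p = 0.061) or corticosterone control 1 (-1.32, adjusted p = 0.063), and in a fit of only the 2 groups compared (-1.46, adjusted p = 0.074). The FMRKO value passed without corticosterone control 4, which is in neither group but widens the shared spread (-1.06 ± 0.38, adjusted p = 0.033). The libraries lowest in Retnla, control 4 and FMRKO 2, were also the highest of their groups in Adgre1, Mrc1, Folr2, Clec10a and F13a1.

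Cd209f, a lectin of the DC-SIGN family (chromosome 8, 4102787 to 4105835, minus strand), fell with corticosterone in controls. It was at 13.4, 5.56, 17.8 and 10.8 CPM in corticosterone controls 1 to 4 and at 13.2 to 36 CPM in chow controls, so libraries overlapped. In FMRKO mice it was at 29.4, 27.8, 21.5 and 25.7 CPM on chow (libraries 1, 2, 3 and 5) and at 19.9, 16.7, 20.9 and 10.8 CPM with corticosterone (libraries 1 to 4), without overlap. For Cd209f the log2 fold change was -1.18 ± 0.31 in controls (adjusted p = 0.005) and -0.61 ± 0.31 in FMRKO mice (adjusted p = 0.118, edgeR quasi-likelihood test). Mrc1, the mannose receptor CD206 (chromosome 2, 14229414 to 14332057, plus strand), averaged 181 ± 26.8 CPM in corticosterone controls and 193 ± 15.4 CPM in corticosterone FMRKO mice (SD, n = 4), against 202 ± 72.9 and 145 ± 28 CPM on chow. Its log2 fold change was -0.15 ± 0.22 in controls (95% interval -0.62 to 0.31) and 0.41 ± 0.22 in FMRKO mice (adjusted p = 0.145), where it passed without chow control 1 (adjusted p = 0.044). Clec10a, a lectin for galactose-type sugars (chromosome 11, 70156197 to 70170834, plus strand), averaged 47.3 ± 7.84 and 57.5 ± 16.6 CPM with corticosterone, against 72 ± 33.7 and 43.9 ± 8.96 CPM on chow (control and FMRKO, SD, n = 4). Its log2 fold change was -0.61 ± 0.29 in controls (adjusted p = 0.099) and 0.39 ± 0.29 in FMRKO mice (adjusted p = 0.294). Without chow control 1 the control value of Clec10a was -0.88 ± 0.22 and passed (adjusted p = 0.003).

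**Figure D3:**
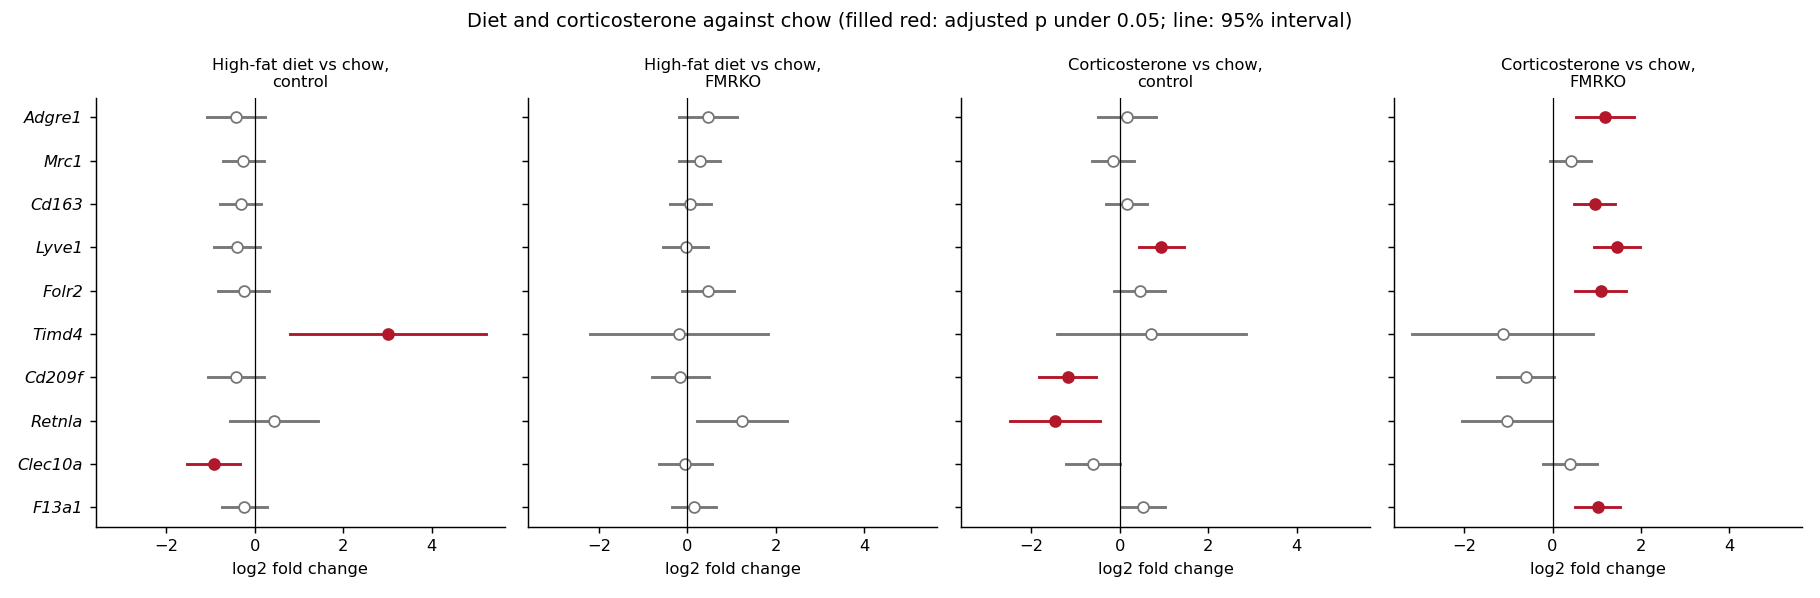
Points give log2 fold changes of the 10 markers against chow and lines their 95% intervals, for the high-fat diet and corticosterone in each genotype, with red filled points for an adjusted p under 0.05. Lyve1 is called higher with corticosterone in both genotypes (0.94 and 1.46), and Retnla lies above 0 on the high-fat diet and below 0 with corticosterone.

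Further genes known from resident macrophages also moved both ways with corticosterone (17 genes, all tested). Of these, 3 rose and 6 fell in controls, and 5 rose and 5 fell in FMRKO mice, with medians of -0.02 and 0.04. The shares of all genes called were 20.2% higher and 22.7% lower in controls, and 20.2% and 20.9% in FMRKO mice. Vsig4, a complement receptor of resident macrophages, rose by 1.82 ± 0.48 in controls and 2.39 ± 0.49 in FMRKO mice, and Fcna, which codes for ficolin A, rose by 1.93 ± 0.38 in FMRKO mice. Fcrls fell by 2.98 on the log2 scale in controls and by 2.42 in FMRKO mice, and Ccl8, a chemokine, fell by 4.28 and 2.31. Fcrls lay at 10.3 to 29.3 CPM in chow controls and 0.77 to 4.0 CPM in corticosterone controls, and at 13.1 to 19.7 and 0.795 to 5.03 CPM in FMRKO mice. Its groups did not overlap in either genotype.

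Of 9 tested genes of type 2 immune signals, 5 fell and 1 rose in controls and 4 fell and 1 rose in FMRKO mice with corticosterone. By comparison, 22.7% of all genes were called lower in controls and 20.9% in FMRKO mice, and 20.2% higher in each. Il33, an alarmin of stromal cells, fell by 2.15 and 1.57 on the log2 scale, Il13ra1, a receptor chain for IL-13, by 1.28 and 0.85, and the eosinophil chemokine Ccl11 by 1.03 and 1.14. Il4 and Il13 themselves were at or under 0.704 CPM in all libraries. Among growth factors and their receptors (5 tested), Il34, a ligand of the CSF1 receptor, rose by 0.72 ± 0.19 and 0.99 ± 0.19, and Csf2rb fell by 1.64 and 1.18. Ccr2, the receptor that brings monocytes into tissue, fell by 2.47 and 2.38, and Chil3 rose by 2.31 ± 0.92 and 3.40 ± 0.97. Dendritic cell genes fell in 5 of 7 in controls and 6 of 7 in FMRKO mice, among them Cd209a (by 2.17 and 2.33).

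Macrophage genes outside the resident set were also counted in each genotype, and 0.0% of all genes passed the test of a difference between the genotypes' responses. Among genes of macrophages in general (18 tested), 8 rose and 2 fell in FMRKO mice and 0 rose and 3 fell in controls, with medians of 0.55 and -0.09. Cd68, a lysosomal protein, rose by 1.93 ± 0.46 in FMRKO mice, and Aif1 fell by 1.32 there and by 1.74 in controls. Of the 10 lipid-associated genes, 5 rose in FMRKO mice and 0 moved in controls, with medians of 1.78 and -0.07. Trem2 lay at 1.87 to 6.27 CPM in chow FMRKO mice and 17 to 33.1 CPM with corticosterone (2.80 ± 0.78, adjusted p = 0.008, edgeR quasi-likelihood test). In controls it lay at 0.803 to 64.0 CPM on chow and 9.36 to 31.8 CPM with corticosterone, so the chow controls spanned the whole range. Among 9 adipocyte genes 5 rose and 1 fell in each genotype. Among 8 fibroblast genes 1 rose and 6 fell in controls, and 1 rose and 4 fell in FMRKO mice. Beside these lists, 20.2% of all genes were called higher and 22.7% lower in controls, and 20.2% and 20.9% in FMRKO mice. Whether the makeup of the tissue sets these differences was not tested.

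Timd4, the phosphatidylserine receptor TIM4 of long-lived resident macrophages (chromosome 11, 46810800 to 46844332, plus strand), followed lymph node transcripts. In the 6 libraries with a lymph node list mean over 3 it lay at 10.0 to 40.9 CPM, and in the 16 libraries under 2 at 1.15 to 4.57 CPM. In the 2 corticosterone FMRKO libraries between them it was 12.4 and 10.8 CPM. The classes with low and high lymph node transcripts did not overlap in Timd4, whereas the ranges of the 9 other members did overlap between them. The share of all genes that separate these classes is not given here.

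For Timd4, chow FMRKO libraries 1, 2, 3 and 5 held 40.9, 1.67, 20.1 and 2.99 CPM, high-fat diet controls 1 to 4 held 10.0, 4.20, 2.02 and 40.0 CPM, and high-fat diet FMRKO libraries 1 to 4 held 19.6, 1.68, 1.73 and 35.0 CPM. Corticosterone controls 1 to 4 held 3.58, 1.15, 3.14 and 3.64 CPM and FMRKO libraries 4.57, 12.4, 10.8 and 2.36 CPM. Within the 16 libraries low in lymph node transcripts, 5 of the 6 corticosterone libraries exceeded all 4 chow controls (1.67 to 1.81 CPM). The lymph node list means of these corticosterone libraries were the lower ones (-1.54 to -1.23 against 0.11 to 0.44). Within one genotype, chow FMRKO 2 and 5 (1.67 and 2.99 CPM) overlapped corticosterone FMRKO 1 and 4 (4.57 and 2.36 CPM). High-fat diet control 2 (4.20 CPM) lay above every corticosterone control. Timd4 was not called with corticosterone against chow as fitted (0.71 ± 1.03 in controls and -1.13 ± 0.98 in FMRKO mice). With lymph node and muscle scores as covariates it was 1.91 ± 0.37 (adjusted p = 3.6e-04) and 1.38 ± 0.42 (adjusted p = 0.018, edgeR quasi-likelihood test), so the FMRKO direction turned. Without the 6 lymph node libraries the FMRKO value was 1.74 ± 0.60 (adjusted p = 0.036), and without all 8 it was 0.63 ± 0.51 (adjusted p = 0.385). The control value was 0.77 ± 0.46 and 0.77 ± 0.36 in these fits and did not pass (adjusted p = 0.184 and 0.094 in edgeR). No chow or corticosterone control library was among those left out.

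**Figure D4:**
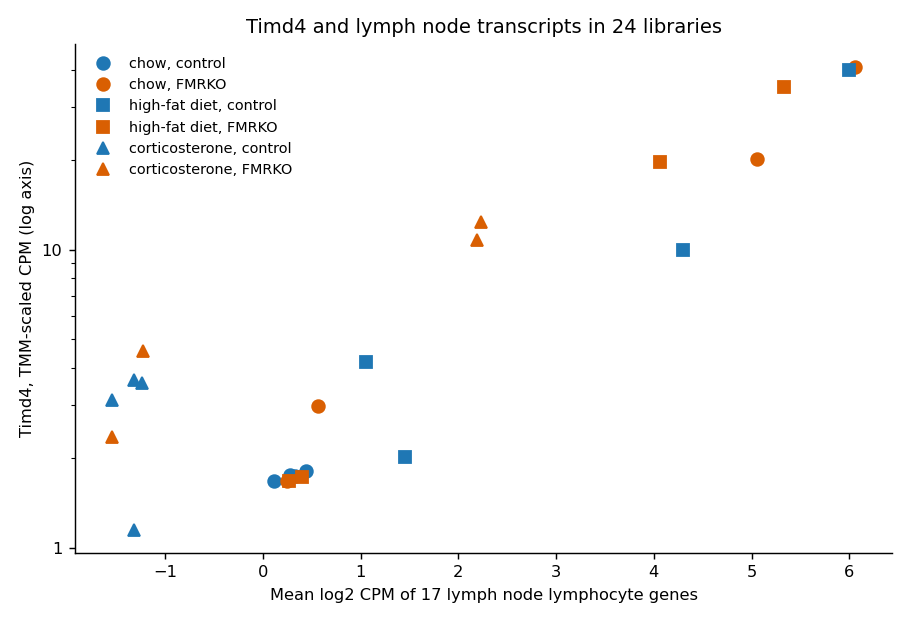
Each point is a library, with the mean log2 CPM of 17 lymph node lymphocyte genes on the x axis and Timd4 CPM on a log y axis, coloured by genotype and shaped by condition. The 6 libraries over 4 on the x axis hold 10.0 to 40.9 CPM, and the corticosterone libraries at the left hold 1.15 to 4.57 CPM.

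High-fat diet against chow asks what the diet does to the same markers. In controls 1 member rose and 1 fell, against 29.2% of all genes called, 15.3% higher and 13.9% lower. Of all genes, 11.5% were higher and 11.7% lower without overlap, and of the members 1 and 0. In FMRKO mice 0 of 10 were called (1 with an unadjusted p under 0.05, and 0 in DESeq2), against 24.4% of all genes, 15.2% higher and 9.18% lower. There 1 member was higher and 0 lower without overlap, against 13.5% and 8.88% of all genes. The members' median was -0.29 in controls and 0.11 in FMRKO mice, and that of all genes 0.01 and -0.06. The member that rose was Timd4 (3.01 ± 1.07, adjusted p = 0.039, edgeR quasi-likelihood test), from 1.74 ± 0.0578 to 14.1 ± 17.6 CPM (SD, n = 4), and the 2 highest of its 4 diet libraries were the 2 with the most lymph node transcripts. Of the 17 lymph node genes, 15 rose in the same comparison. The Timd4 value was 1.6 ± 1.0 without high-fat diet control 4 and 0.86 ± 0.55 once the lymph node libraries were left out (adjusted p = 0.248 and 0.267). It also missed the threshold without high-fat diet control 1 (adjusted p = 0.051) or any single chow control (0.075 to 0.087), and with no low-count filter (0.051).

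Clec10a fell in controls on the high-fat diet. High-fat diet controls 1 to 4 held 29.6, 46.6, 45.9 and 29 CPM, against 26 to 107 CPM in chow controls. The groups overlapped through chow control 1, the lowest library of all 8. The log2 fold change was -0.93 ± 0.29 (adjusted p = 0.022, edgeR quasi-likelihood test), and it was -0.05 ± 0.29 in FMRKO mice (95% interval -0.65 to 0.56). The call ended without chow control 4 (-0.88, adjusted p = 0.053), chow control 5 (-0.71, adjusted p = 0.087), high-fat diet control 1 (-0.86, adjusted p = 0.055) or the lymph node libraries (-0.60, adjusted p = 0.252), and in a fit of only the 2 groups compared (-0.94, adjusted p = 0.113).

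Retnla was at its highest on the high-fat diet. High-fat diet FMRKO libraries 1 to 4 were nearly equal at 279, 295, 279 and 270 CPM, and high-fat diet controls 1 to 4 stood at 222, 259, 249 and 129 CPM. Among FMRKO mice the diet and chow libraries did not overlap, and in controls they did. The log2 fold change was 1.24 ± 0.49 in FMRKO mice (adjusted p = 0.067) and 0.44 ± 0.48 in controls (adjusted p = 0.514, edgeR quasi-likelihood test). The shared spread included the corticosterone groups, where Retnla varied most (SD of log2 CPM 1.457 and 1.039, against 0.053 in high-fat diet FMRKO mice). Fitted on the 2 groups compared alone, the FMRKO value was 1.18 ± 0.12 (adjusted p = 0.001), and without corticosterone control 4 it was 1.19 ± 0.38 (adjusted p = 0.028). Without corticosterone FMRKO 2 it was 1.19 ± 0.43, at the threshold (adjusted p = 0.050). Over all 35 alternatives the FMRKO value ran from 0.94 to 1.44, with an adjusted p from 0.001 to 0.211 (edgeR or DESeq2).

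The other 7 members were not called on the high-fat diet in either genotype. In controls their log2 fold changes ran from -0.42 (Adgre1 and Cd209f) to -0.24 (F13a1), and in FMRKO mice from -0.16 (Cd209f) to 0.47 (Adgre1 and Folr2). Without chow control 1, Mrc1 (-0.49 ± 0.17, adjusted p = 0.038) and Lyve1 (-0.64 ± 0.21, adjusted p = 0.025) passed in controls, and without chow controls 1 and 2, Lyve1 (-0.75) and F13a1 (-0.59, adjusted p = 0.040) passed. Cd163 passed without high-fat diet control 2 (-0.61, adjusted p = 0.035). Without the lymph node libraries Mrc1, Cd163 and F13a1 stood at 0.07, 0.06 and 0.10. Their small diet difference in controls therefore had either sign, depending on which libraries entered. Among the 17 further resident genes, 3 rose and 4 fell in controls (median -0.2), and 5 rose and 1 fell in FMRKO mice (median 0.25). The shares of all genes called were 15.3% higher and 13.9% lower in controls, and 15.2% and 9.18% in FMRKO mice. In this list Ccl24, an eosinophil chemokine, rose by 0.85 ± 0.22 in controls and 0.76 ± 0.22 in FMRKO mice, and Cd209d by 1.00 ± 0.30 and 1.10 ± 0.30. Slco2b1, a transporter, fell by 1.10 and 0.63 on the log2 scale. Csf1, the main growth factor of macrophages, fell by 0.68 and 0.53 and lay at 65.5 to 105 CPM in chow controls and 48.7 to 58.6 CPM on the diet. Stat6 rose by 0.45 ± 0.09 and 0.35 ± 0.09.

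Corticosterone and the high-fat diet were also set against each other. In controls 2 were higher and 1 lower with corticosterone, against 24.9% of all genes called, 10.6% higher and 14.2% lower. In FMRKO mice 3 were higher and 1 lower, against 15.8%, 7.27% higher and 8.49% lower. Groups did not overlap for 3 members higher and 1 lower in controls (13.1% and 14.8% of all genes) and for 5 higher and 1 lower in FMRKO mice (12.9% and 12.1%). The median was 0.39 and 0.53, and that of all genes -0.05 and -0.04. These comparisons share their corticosterone libraries with those against chow. Lyve1 on the high-fat diet was at 27.9, 39.7, 23.6 and 27.3 CPM in controls 1 to 4 and at 41.1, 34.6, 32.1 and 48.9 CPM in FMRKO libraries 1 to 4, below every corticosterone library. Its difference was 1.35 ± 0.25 in controls (adjusted p = 6.1e-04) and 1.5 ± 0.25 in FMRKO mice (adjusted p = 3.0e-04, edgeR quasi-likelihood test). Retnla was lower by 1.91 and 2.29 on the log2 scale (-1.91 ± 0.50, adjusted p = 0.008, and -2.29 ± 0.50, adjusted p = 0.003), without overlap in either genotype. Without the 8 libraries with lymph node transcripts the FMRKO value was -2.17 ± 0.72 and did not pass (adjusted p = 0.085).

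F13a1 was higher by 0.77 ± 0.24 in controls (adjusted p = 0.025) and 0.86 ± 0.24 in FMRKO mice (adjusted p = 0.018). Diet controls 1 to 4 held 110, 182, 144 and 93.9 CPM and diet FMRKO libraries 124, 141, 161 and 154 CPM, below every corticosterone library of their genotype. The control call ended without high-fat diet control 4 (0.69, adjusted p = 0.062). Both F13a1 calls ended when the lymph node libraries were left out (0.49 ± 0.29 and 0.83 ± 0.29, adjusted p = 0.279 and 0.077 in edgeR). The FMRKO value hardly moved there, and its standard error rose from 0.24 to 0.29. Cd163 was higher in FMRKO mice (0.89 ± 0.22, adjusted p = 0.009 in edgeR) and was at 127, 117, 145 and 125 CPM on the diet there. Without the 8 libraries its FMRKO value was 0.89 ± 0.29 (adjusted p = 0.078 in edgeR). In controls it was at 98.1, 162, 108 and 58.9 CPM on the diet and differed by 0.46 ± 0.22 (adjusted p = 0.138), or 0.79 without high-fat diet control 2, its highest diet library (adjusted p = 0.008). Cd209f differed by -0.76 ± 0.31 in controls (adjusted p = 0.079) and passed without chow control 1 (0.049) or corticosterone control 3 (0.040). Adgre1 was higher in every corticosterone FMRKO library than in every diet one, by 0.71 ± 0.32 (adjusted p = 0.135). Folr2 was not called in either genotype (0.70 ± 0.28 and 0.62 ± 0.28, adjusted p = 0.070 and 0.136), but without chow control 1, whose removal narrows the shared spread, it passed in both (adjusted p = 0.013 and 0.033). In controls it also passed without chow control 5, high-fat diet control 2, high-fat diet FMRKO 4 or corticosterone FMRKO 2 (0.036 to 0.049), and in DESeq2 (0.039).

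FMRKO against control asks whether loss of the receptor in fat cells alters these markers. On chow 0 of the 10 members were called (4 with an unadjusted p under 0.05, against 11.9% of all genes), and 0.0101% of all genes were called. Of all genes 1.59% were higher and 1.61% lower without overlap, and of the members 0 and 0. On the high-fat diet 0 were called (0 with an unadjusted p under 0.05, against 3.96% of all genes), beside 0.0101% of all genes called, and with corticosterone 0 against 0.00507%. Averaged over the 3 conditions 0 were called, against 0.0355%. An unadjusted p under 0.05 was reached by 2 members with corticosterone and by 4.28% of all genes, and by 3 members and 6.66% of all genes in the average. DESeq2 also called 0 members in each of these comparisons. The members' medians were -0.34 (chow), 0.19 (high-fat diet), 0.25 (corticosterone) and 0.01 (averaged), and those of all genes lay within 0.02 of 0.

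On chow, Adgre1 was at 31.2 ± 8.41 CPM in FMRKO mice and 59.2 ± 35.1 CPM in controls (SD, n = 4), a log2 difference of -0.93 ± 0.32 (adjusted p = 0.291, edgeR quasi-likelihood test). Clec10a differed by -0.72 ± 0.29 and Mrc1 by -0.47 ± 0.22 (adjusted p = 0.344 and 0.409). Timd4 lay on the other side, at 3.24 ± 1.07 (adjusted p = 0.288), and at 0.42 ± 0.56 with the lymph node libraries left out. FMRKO libraries lay between the lowest and highest controls for Clec10a and Mrc1, and for Adgre1 their range of 23.5 to 41.7 CPM began just under the lowest control (23.6 CPM). Leaving out single libraries moved the Adgre1 value from -1.19 to -0.49, and it was -0.49 without the chow control that holds 103 CPM, library 2.

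With corticosterone Cd163 was at 238 ± 27.8 CPM in FMRKO mice and 147 ± 33.4 CPM in controls (SD, n = 4), and each FMRKO library exceeded each control. Lyve1 was at 111 ± 26.5 and 75.6 ± 13.4 CPM, also without overlap. Without overlap, 2.44% of all genes lay above and 2.49% below the controls, and of the members 2 and 0. The log2 differences were 0.70 ± 0.22 and 0.55 ± 0.25, and neither passed (adjusted p in the edgeR quasi-likelihood test 0.924 and 1.000; 0.412 to 1.000 and 0.534 to 1.000 over the alternatives). On the high-fat diet Retnla was higher in every FMRKO library than in every control, with 1.53% of all genes higher and 0.847% lower without overlap. Its log2 difference was 0.39 ± 0.48 (adjusted p = 1.000), and the 95% interval from -0.61 to 1.38 allows a difference in either direction.

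The change of the FMRKO effect between conditions was tested directly. Against chow, 0 of 10 members passed on the high-fat diet (2 with an unadjusted p under 0.05, against 9.83% of all genes) and 0 of 10 with corticosterone (3 unadjusted, against 5.94%), where 0.0% of all genes passed in either test. DESeq2 called 0 members in both. The values with corticosterone were 1.03 ± 0.45 for Adgre1, 1.00 ± 0.41 for Clec10a and 0.81 ± 0.32 for Cd163 (adjusted p = 0.814, 0.795 and 0.769). The median half-width of the members' 95% intervals was 0.84 in both tests. The larger number of calls in FMRKO mice with corticosterone is therefore not shown to be a difference between the genotypes.

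**Figure D5:**
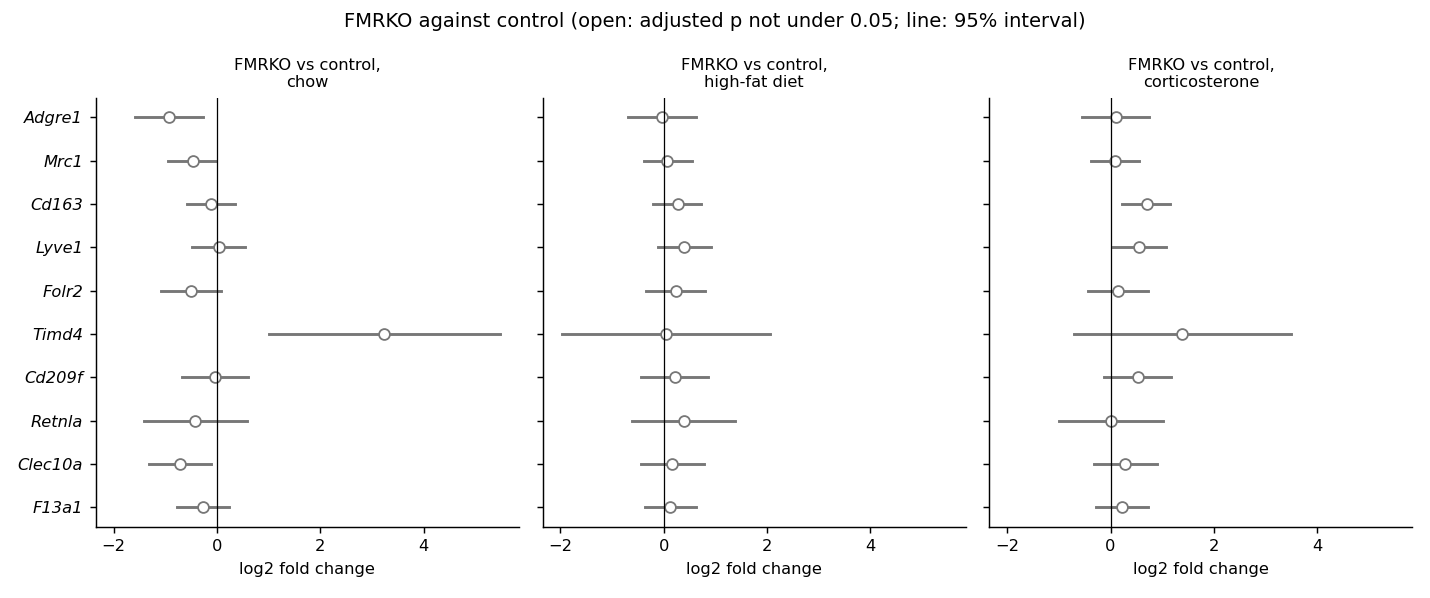
Points give log2 differences of FMRKO against control for the 10 markers and lines their 95% intervals, in the 3 conditions. No point passes an adjusted p of 0.05, and Cd163 (0.70) and Lyve1 (0.55) with corticosterone have intervals above 0. On chow the interval of Timd4 lies above 0, and those of Adgre1, Clec10a and Mrc1 lie below 0.

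Genes most like the members were sought by Pearson correlation of log2 CPM with the mean of the 10 members over 24 libraries, as a description, since the libraries share groups and tissue makeup. The closest were Ms4a8a (r = 0.806), Ticam2 (0.781), C1qa (0.765), Csf1r (0.727), Agtrap (0.712), C1qc (0.711), Mpi (0.698) and C1qb (0.696). After each group's mean was removed they were Ticam2 (0.826), C1qa (0.819), Mpi (0.810), Fcgr2b (0.803), Ms4a8a (0.794), Tgfbr2 (0.788), Pld4 (0.773) and C1qc (0.766). C1qa, C1qb and C1qc code for the chains of complement C1q, made by tissue macrophages, and Csf1r for the receptor on which macrophages depend. Each member was itself part of that mean, and members differed in how closely they tracked it. Their values ran from 0.721 for Folr2 and 0.653 for Mrc1 to 0.317 for Timd4 and 0.024 for Retnla. Without Timd4 in the mean, a choice made after the values were seen, Mrc1 reached 0.892 and Retnla 0.001, both still part of it. On its own, also a later choice, Retnla was most like Fcrls (0.913).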

How the data were processed

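Total RNA of inguinal fat was sequenced after ribosomal RNA removal, per the labels' protocols. Per the submitters' processing notes, STAR 2.5.1a, featureCounts 1.4.6p-5 of the Subread package and the mouse build GRCm38 were used. No source used here gives the strand setting or annotation release. Whether reads of Folr2 and F13a1 were kept apart from those of genes annotated on the opposite strand there is therefore not known. Mrc1 overlaps Mir511. The authors deposited raw counts per gene, which were used for all tests. The authors also deposited CPM (the count over the library total) and RPKM (CPM per kilobase of gene length), and both were recomputed from the counts to within 3.5e-10.

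Counts of all 24 libraries were fitted in edgeR 4.0.16 (R 4.3.3) with a filter on low counts (filterByExpr by group, minimum 10; 19717 of 41388 genes), TMM scaling (factors 0.856 to 1.24), 1 mean per group and the quasi-likelihood test, two-sided, with 18 residual degrees of freedom. P-values were adjusted by Benjamini-Hochberg over all tested genes in each of 12 comparisons. Lists of other cell types and states (15) were described by counts and medians, naming up to 4 called genes with the largest fold change per list and comparison, and the 8 genes most correlated with the members' mean. The members and lists were chosen with earlier results of these data known. In data simulated for the high-fat diet against chow in controls, over 19717 genes, 45% of 100 genes changed 2-fold and 72% of 100 changed 4-fold were recovered, with 8 false calls. Total counts ran from 17925109 to 40427675 per library, and the 4 libraries of a group set the precision. No pair of libraries was within sampling noise of each other.

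High-fat diet libraries with the same number in both genotypes deviated together (r = 0.204, 0.548, 0.547 and 0.723), with no origin of the pairing given in the labels. Chow (r = -0.283 to 0.108) and corticosterone libraries (r = -0.04 to 0.077) did not. In an alternative fit, a replicate block paired same-numbered libraries of both genotypes in all 3 conditions. For diet and corticosterone comparisons it instead paired same-numbered libraries of a genotype across conditions. Alternatives were median-ratio scaling, library totals, no filter, only the groups compared, a replicate block, DESeq2 1.42.0, each library left out, libraries with lymph node or muscle transcripts left out, and both as covariates.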

Additional observations from a re-analysis of the deposited data

Results flagged for a closer look

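In corticosterone FMRKO mice, Lyve1 stood at 150.0 CPM in library 2, far above the other 3 libraries, which lay between 94.4 and 103 CPM. Folr2 stood at 86.5 CPM in the same library, against 58.9 to 60.4 CPM in the others. Both were found by the gap of the highest library to its neighbour relative to the range of the group, among 60 sets of a marker and a group, where chance marks about 1 in 20. The same library was highest of its group for 8 of the 10 markers and held lymph node transcripts (list mean 2.23).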

How the results depend on the processing

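Over the alternatives, 17 called changes of single markers gave 595 values, of which 557 kept the call, 38 lost it and 0 turned direction. For 34 changes not called, 1130 of 1187 values gave the same answer, 42 passed and 15 turned direction. For the high-fat diet against chow in controls (2 members called), the number called was 1 with no low-count filter, 1 with only the groups compared, 0 with the replicate block, 0 without the lymph node libraries, 1 with both covariates and 0 without 8 libraries with lymph node transcripts (with single libraries left out, 0 to 3). In FMRKO mice (0 called) it was 1 with only the groups compared (single libraries left out, 0 to 1). For corticosterone against chow it was 5 with covariates in controls (3 called; 2 to 4 without single libraries) and 2 without the 8 libraries in FMRKO mice (5 called; 5 to 6). Against the high-fat diet it ranged from 2 to 5 without single libraries in controls (3 called), and was 1 without the 8 libraries in FMRKO mice (4 called; 4 to 5). The replicate block changed no call between genotypes. In the other comparisons it paired same-numbered libraries of a genotype across conditions, which did not deviate together throughout. Between chow and corticosterone controls r was 0.321, 0.165 and -0.31. Between chow and high-fat diet controls it was 0.132, 0.138 and -0.067. Between high-fat diet and corticosterone FMRKO libraries it ran from -0.372 to -0.168, and it reached 0.589 for chow and high-fat diet FMRKO 2. Under the block Cd209f with corticosterone in controls was -1.15 (adjusted p = 0.052 in edgeR). Clec10a and Timd4 with the diet in controls were -0.61 (0.121) and 2.48 (0.195), and Cd163 against the diet in FMRKO mice was 0.88 (0.052). The mean of 3 conditions could not be fitted on only the groups compared. Shares of all genes called are not given for these settings, so the counts are not read as results about the members.

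Values that turned direction were Mrc1 at 0.07, Cd163 at 0.06 and F13a1 at 0.10 for the diet in controls, the same with the 6 lymph node libraries or all 8 left out (from -0.26, -0.31 and -0.24). Timd4 with corticosterone in FMRKO mice went from -1.13 to 1.74 without the lymph node libraries, 1.38 with covariates and 0.63 without the 8. Against the diet it went from -0.95 to 2.17, 1.30 and 1.05 in the same order, and to 0.29 with the replicate block. In controls against the diet it went from -2.30 to 1.72 with covariates, and its mean FMRKO effect from 1.56 to -0.06 without the 8. The cause was not tested. The settings without chow controls 1 and 2 and without 8 libraries were chosen after the values were seen. Scaling by library totals moved the median of all genes by -0.19 and -0.29 (diet, control and FMRKO) and by -0.20 and -0.24 (corticosterone), and the share of calls that were higher to 26.6%, 21.3%, 29.2% and 26.8%, from 52.3%, 62.4%, 47.2% and 49.2%. For corticosterone against the diet in FMRKO mice that share went from 46.1% to 60.7%. Members called under library totals were 1 higher and 2 lower for the diet in controls, and 1 higher and 3 lower (control) and 5 higher and 2 lower (FMRKO) for corticosterone. Of all genes, 1743 were called higher and 4808 lower for the diet in controls under library totals. For corticosterone these numbers were 2564 and 6229 in controls and 2409 and 6567 in FMRKO mice.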
